A study of Homo sapiens with 10 samples.

Results

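Extended pluripotent stem (hEPS) cells after crotonate were set beside endodermal cells, both derived from 1 human line, and the genes compared were those with an entry in both deposited tables. There were 18437 such genes of 27492 symbols in the series, and 12943 had at least 1 FPKM (fragments per kilobase of transcript, scaled to library size) in either column. All cells came from H9, an established human embryonic stem cell (hESC) line, carrying GFP under LTR7, a promoter of the retrovirus family HERVH, and the comparison used 4 of the 10 samples. Crotonate-treated hEPS cells had been converted in LCDM medium, which contains the GSK3 inhibitor CHIR99021, on mitomycin C-treated mouse embryonic fibroblast feeders. They were kept in 10 mM crotonate for 12 days and were freed of feeders by adherence before RNA was taken. Endodermal cells had been derived from the primed reporter hESCs in E8 medium with BMP4 and Activin A. Their medium also held CHIR99021 on the first days, and they received no crotonate. Untreated hEPS cells, untreated primed hESCs and primed hESCs after 12 days in 10 mM crotonate are given beside them. The 3 tables hold 1 FPKM column per group for 2 labelled samples, so no value below has an SD, a test or a p-value, and the step that combined the samples was not given in the sources read.

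Definitive endoderm forms in the embryo when Nodal signalling in the primitive streak switches on EOMES, MIXL1 and GSC and then SOX17 and FOXA2, which open the programme of the gut, liver and pancreas. BMP signalling directs neighbouring streak cells to lateral plate mesoderm and extraembryonic tissues, marked by HAND1, the T-box genes TBX2 to TBX4 and, along the body axis, the HOX genes. Crotonate is a short-chain fatty acid salt that cells turn into crotonyl-CoA, the donor for lysine crotonylation of histones and other proteins.

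Levels below are FPKM rescaled so that each column sums to 1000000 over the shared genes, which held 79.9% of all FPKM in the crotonate-treated hEPS column and 98.2% in the endodermal column. On this scale 1 FPKM became 2.10 in crotonate-treated hEPS cells and 2.73 in endodermal cells. Differences are those of log2(rescaled FPKM + 1), crotonate-treated hEPS minus endodermal, which understates the difference of low genes, and a gene was called if it was 4-fold or more apart and had 1 FPKM or more in either column. Of the 12943 genes, 915 (7.07%) were called higher and 576 (4.45%) lower in crotonate-treated hEPS cells. These shares are the background for the list counts below, and list members under 1 FPKM in both columns could not be called. The median difference was 0.16 log2 units and 65.3% of genes lay within 2-fold. At the edge of the filter, LINGO2 was kept with a highest value of 1.002 FPKM and F5 was left out at 0.9998 FPKM. Quantile normalization moved this median to 0.02, and FPKM as deposited moved it to 0.48. The share of higher genes among those called was therefore 61.4% with rescaling, 51.4% with quantile normalization and 73.8% as deposited, and 513 higher and 481 lower genes were called under both of the first pair of scalings. The 30 reference genes gave 0 calls and a median difference of 0.04.

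Definitive endoderm genes were far higher in crotonate-treated hEPS cells than in the cells labelled endodermal. Of 18 genes in the list, 15 were called higher, against 7.07% of all measured genes, 0 were lower and 3 were neither, and the median difference was 4.50 against 0.16 over all measured genes. All 18 reached 1 FPKM in crotonate-treated hEPS cells, 16 did so in untreated hEPS cells and 7 in endodermal cells. CER1, a secreted antagonist of Nodal, BMP and WNT made by anterior endoderm and encoded on chromosome 9 from 14719724 to 14722733 (hg38, GENCODE 44), showed the greatest difference of all called genes. Its level was 4119 in crotonate-treated hEPS cells, 74.5 in untreated hEPS cells, 0.575 in endodermal cells, 4.37 in untreated primed hESCs and 0.934 in crotonate-treated primed hESCs, a difference of 11.35. SOX17, the transcription factor that specifies endoderm, was at 401 in crotonate-treated and 55.7 in untreated hEPS cells, 0.197 in endodermal cells, 10.8 in crotonate-treated primed hESCs, and listed at 0 in untreated primed hESCs. Both genes were thus high in the 2 hEPS columns and low in the endodermal column.

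FOXA2, the pioneer factor of gut endoderm, was at 127 in crotonate-treated and 35.8 in untreated hEPS cells and listed at 0 in endodermal cells. GSC, a homeobox factor of the anterior streak, was at 116 against a listed 0, with 16.4 in untreated hEPS cells. No fold is given for either gene. HHEX, a homeobox factor of anterior endoderm, was at 28.4 against 0.482, and at 0.992 in untreated hEPS cells. LHX1, which acts in the head organizer, was at 19.2 against 1.15, and at 1.43 before crotonate. PRDM1, a transcriptional repressor of endoderm and germ cell precursors, was at 109.9 against 7.83, and at 13.7 in untreated hEPS cells. These genes were therefore higher in crotonate-treated hEPS cells than in either the endodermal column or untreated hEPS cells.

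GATA4 and CXCR4 stood apart from this pattern. GATA4, a zinc-finger factor shared by endoderm and heart, was not called, at 205 in crotonate-treated hEPS cells and 272 in endodermal cells. Its untreated levels were 39.8 in hEPS cells and 0.133 in primed hESCs. GATA6, its paralog, was called higher at 179 against 9.28, with 18.5 in untreated hEPS cells. CXCR4, the chemokine receptor used to sort endoderm and also present on mesoderm, was not called at 99.5 and 94.7. GATA4, GATA6 and CXCR4 were the only endoderm markers of a set of 8 that reached 1 FPKM in the endodermal column, where 5 of 6 lateral mesoderm markers did. The set summed to 5184 in crotonate-treated hEPS cells and 377.7 in endodermal cells. CER1 alone gave 4119 of the former sum, and GATA4 and CXCR4 gave most of the latter, so these sums rest on few genes. SOX17, FOXA2, CER1 and HHEX were at or near 0 in the endodermal column, so these markers went against its label, and the name is used below only as the label gives it. The paper reports a rise of germ layer markers in its endodermal cells. It measured GATA4, GATA6 and SOX17 there by RT-qPCR and stained for GATA6, and the low SOX17 of this column stands apart from that. In bulk RNA, fewer cells of a type and less RNA per cell cannot be told apart.

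**Figure D1:**
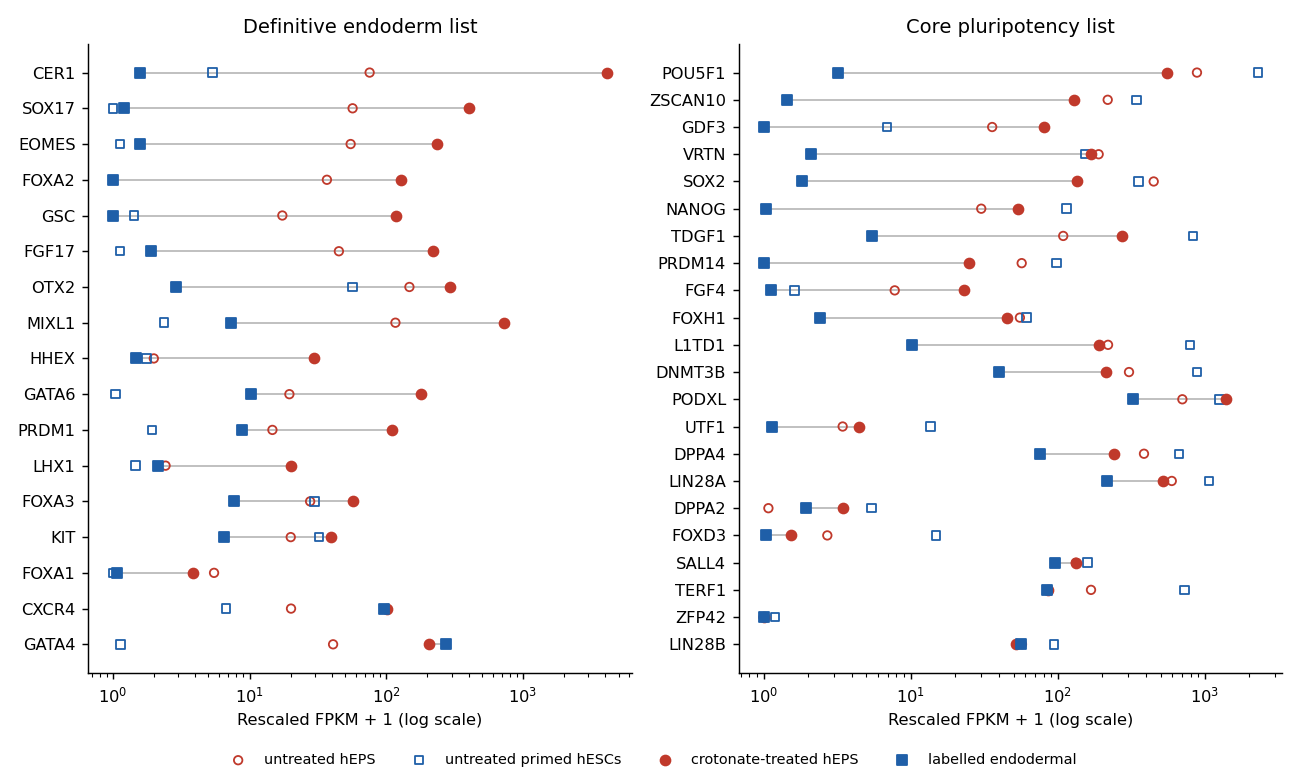
Level of genes of the definitive endoderm and core pluripotency lists in 4 columns, as rescaled FPKM + 1 on a log axis, with 1 point per column and a grey line joining the compared pair. Crotonate-treated hEPS cells (filled circles) lie right of endodermal cells (filled squares) by at least 4-fold for most endoderm genes and for 13 of 22 pluripotency genes, and GATA4 and CXCR4 nearly coincide.

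Nodal ligand, co-receptors and feedback antagonists were also higher in crotonate-treated hEPS cells. Of 20 Nodal pathway genes, 9 were called higher, 0 lower and 9 neither, 2 were below 1 FPKM in both, and the median was 2.29 over the measured members. NODAL itself was at 115 in crotonate-treated hEPS cells, 32.1 in untreated hEPS cells and 1.21 in endodermal cells. TDGF1, its co-receptor, was at 274 against 4.42, with the highest level, 824, in untreated primed hESCs. LEFTY1, a feedback inhibitor, was at 377 against 1.801, and LEFTY2 was at 1700.4 against 101. The LEFTY genes are near-identical neighbours whose reads the authors' counting may have split between them, and their untreated hEPS levels were 20.03 and 25.4. FST, which binds activin, was at 332 against 40.2 but higher still, at 669, in untreated hEPS cells. The receptors and SMADs showed no call, with SMAD2 at 45.5 and 18.2, SMAD3 at 82.6 and 63.6, and ACVR1B at 50.1 and 21.3.

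The primitive streak list gave 12 genes higher and 2 lower of 19, with a median of 3.68 over 17 measured. EOMES, the T-box factor at the head of the endoderm programme, was at 233 against 0.583, with 53.8 in untreated hEPS cells. MIXL1, a homeobox factor of the streak, was at 721 against 6.300 and at 116 in untreated hEPS cells. T (brachyury), a factor of the streak and nascent mesoderm, was at 30.6 against 0.393. FGF8 and FGF17, secreted growth factors of the streak and later organizers, were at 73.6 against 0.243 and at 218 against 0.899. The 2 genes called lower act in the posterior body. EVX1, a homeobox factor of the late posterior streak, was at 5.11 against 70.4, and CDX2, of hindgut and trophectoderm, was at 0.527 against 13.99. CDX1 went the other way, at 10.9 against 0.174.

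Of 24 visceral endoderm and liver genes, 4 were called higher and 0 lower, and 15 were below 1 FPKM in both columns. Over all measured genes, 7.07% were called higher and 4.45% lower. HNF4A, a nuclear receptor of visceral endoderm and liver, was at 47.5 against 0.0411. APOA2, an apolipoprotein of high-density lipoprotein, was at 154 and listed at 0 in endodermal cells. APOA1, its partner, was at 104 against 3.09, but untreated hEPS cells held 205. APOC1 was at 279.9 against 20.8, with 201 before crotonate. AFP, the fetal serum protein of yolk sac and liver, was at 0.216 and 1.096, under 1 FPKM in both. Of 14 gut tube genes, CDX1 and ELF3 were higher and CDX2 lower, with ELF3, an epithelial ETS factor, at 18.5 against 0.893.

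Core pluripotency factors were measurable in crotonate-treated hEPS cells, and POU5F1, NANOG and SOX2 were below 1 FPKM in endodermal cells. The core list gave 13 of 22 genes higher, 0 lower and 7 neither, with a median of 4.22 over 20 measured, and 20 genes reached 1 FPKM in crotonate-treated hEPS cells. POU5F1 (OCT4), on chromosome 6 from 31164337 to 31180731, was at 549 in crotonate-treated hEPS cells, 880.3 in untreated hEPS cells, 2.21 in endodermal cells, 2279.6 in untreated primed hESCs and 1.15 in crotonate-treated primed hESCs. POU5F1 has processed pseudogenes whose reads counting can split. NANOG, the homeobox factor of the same core, was at 52.8 against 0.0371, with 29.1 in untreated hEPS cells. SOX2, the third core factor and also a neural gene, was at 134 against 0.828, below its untreated hEPS level of 447. The differences of log2(rescaled FPKM + 1) were 7.42 for POU5F1, 5.70 for NANOG and 6.21 for SOX2. LIN28A, an RNA-binding repressor of let-7, was not called at 516 and 213, nor was SALL4, a zinc-finger partner of OCT4, at 133 and 94.2.

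Genes tied to the naive and the primed state did not divide the columns cleanly. Of 18 naive genes, 9 were measured, 5 of them higher and 1 lower, against 7.07% and 4.45% of all measured genes. KLF4, a zinc-finger reprogramming factor, was at 119 against 8.53, and DNMT3L, a DNA methylation cofactor, was at 7.62 against a listed 0. TBX3, called lower, was at 9.27 against 132 and is also a lateral mesoderm gene. Of 14 primed genes, 6 were higher and 1 lower. ZIC2, a zinc-finger factor of epiblast and neural plate, was at 172 against 0.725. VIM, the intermediate filament vimentin, was the lower member at 459.6 against 5742. Of 5 transcripts read from HERVH LTR7 elements, the sequence class behind the GFP reporter, 4 were higher and 0 lower. KLKB1 was at 17.9 against 0.0675, and HHLA1 was at 12.8 against a listed 0.

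Early neural genes gave 10 of 29 higher and 0 lower, and OTX2, SOX2 and ZIC2 among them are pluripotency genes as well. PAX6, the eye and neural plate factor, was at 19.9 against 0.213, with 12.3 in untreated hEPS cells. HES3, a Notch-family repressor, was at 3.52 against a listed 0, after 241 in untreated hEPS cells. NES, an intermediate filament of neural progenitors and other dividing cells, was not called at 469.6 and 355. SOX1, the neuroectoderm factor, was at 0.115 against a listed 0, with 6.84 in untreated hEPS cells, under 1 FPKM in the compared pair. Of 27 synapse and receptor genes, 21 were measured, 6 of them higher and 1 lower, against 7.07% and 4.45% of all measured genes.

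Lateral mesoderm genes were higher in the cells labelled endodermal. Of 27 lateral plate and cardiac mesoderm genes, 13 were called lower in crotonate-treated hEPS cells, against 4.45% of all measured genes. In the same list 1 was higher and 11 neither, and the median was -2.26 over 25 measured. HAND1, a bHLH factor of lateral mesoderm, amnion and heart on chromosome 5 from 154474972 to 154478227, was at 1.91 in crotonate-treated hEPS cells, 3.13 in untreated hEPS cells, 625 in endodermal cells, 0.192 in untreated primed hESCs and 1022 in crotonate-treated primed hESCs. HAND2, its paralog, was at 0.171 against 158, with 469.8 in crotonate-treated primed hESCs. TBX4, a T-box factor of hindlimb and allantois, was at 0.257 against 161. ISL1, a LIM homeobox factor of second heart field and amnion, was at 1.73 against 128. HAND1, HAND2 and TBX4 were thus high in both descendants of primed hESCs and low in both hEPS columns. GATA6 was the 1 member called higher. PDGFRA, a growth factor receptor of mesoderm and primitive endoderm, was not called at 12.9 against 7.48.

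HOX genes, which pattern the trunk along the body axis, were mostly higher in the endodermal column of the compared pair. Of 39 HOX genes in both tables, 28 were called lower, against 4.45% of all measured genes, and 0 higher, and 30 reached 1 FPKM in endodermal cells against 4 in crotonate-treated hEPS cells, 6 in untreated hEPS cells, 0 in untreated primed hESCs and 33 in crotonate-treated primed hESCs. Their levels summed to 24.4 in crotonate-treated hEPS cells, 991 in endodermal cells and 1881 in crotonate-treated primed hESCs. HOXB1 and HOXB2, at the head end of their cluster, were among those 4. HOXB1 was at 2.95 against a listed 0, and untreated hEPS cells had 25.98. In endodermal cells the trunk and tail paralogs led, with HOXA10 at 105, HOXB6 at 96.4 and HOXA9 at 96.1. Their levels in crotonate-treated hEPS cells were 0.0769, 0.155 and 0.0553. HOXA13, the most distal paralog of its cluster, was at 0.0181 against 85.9, with 148 in crotonate-treated primed hESCs. Neighbouring HOX genes share transcripts and exons, so their single values are uncertain.

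**Figure D2:**
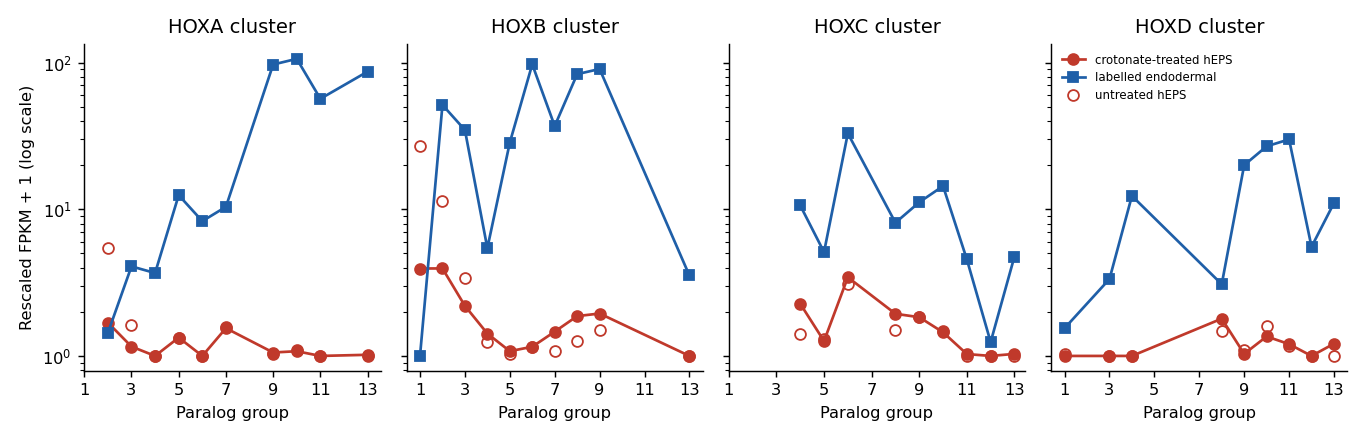
Level of HOX genes by paralog group, from head to tail along the 4 clusters, as rescaled FPKM + 1 on a log axis. The endodermal column (squares) lies above the crotonate-treated hEPS column (filled circles) at every HOX gene drawn but HOXA2 and HOXB1.

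BMP pathway genes were lower in crotonate-treated hEPS cells or not called. Of 22 genes, 7 were lower, against 4.45% of all measured genes, and 0 higher, with a median of -1.28. BMP4, the ligand, was at 41.4 against 376, and BMP4 protein was also part of the endodermal medium. MSX1, MSX2 and DLX5, homeobox targets of BMP, were at 16.3 against 425, 18.3 against 360.0 and 0.343 against 179. BAMBI, a decoy receptor induced by BMP, was at 156 against 1589. The ID genes, direct targets that block bHLH factors, were not called, with ID1 at 851 and 1032 and ID3 at 308 and 793. DLX5 differed between the descendants of primed hESCs, since the crotonate-treated ones held 1.98.

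**Figure D3:**
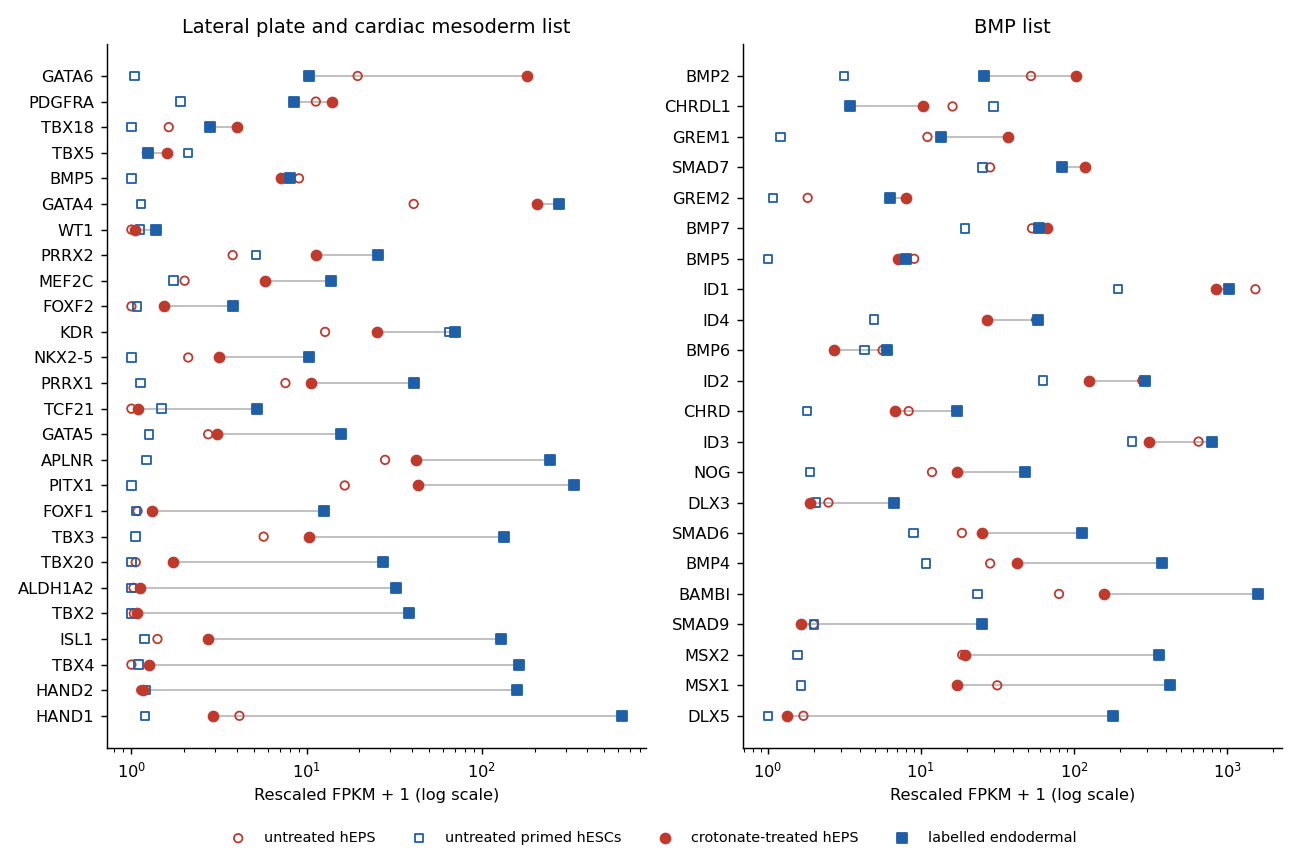
Level of genes of the lateral plate and cardiac mesoderm list and of the BMP list in 4 columns, as rescaled FPKM + 1 on a log axis, drawn as for the endoderm list. HAND1, HAND2, TBX4, ISL1 and DLX5 lie far to the right in endodermal cells (filled squares), and GATA6 lies to the right in crotonate-treated hEPS cells (filled circles).

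Promoter sequences are shown for GSC and MIXL1, among the streak genes highest in crotonate-treated hEPS cells, and for HAND1 and HAND2, among those highest in endodermal cells, as the 250 bases before each gene's start in RefSeq (GRCh38.p14). Capitals mark matches on either strand to the core promoter box TATAAA, the letters AGATAA known from binding by GATA factors, AATCCACA (FOXH1, the DNA-binding partner of SMADs in Nodal signalling) and CTTTGAT (TCF/LEF factors of WNT signalling).
GSC (chr14:94770114-94770363, minus strand): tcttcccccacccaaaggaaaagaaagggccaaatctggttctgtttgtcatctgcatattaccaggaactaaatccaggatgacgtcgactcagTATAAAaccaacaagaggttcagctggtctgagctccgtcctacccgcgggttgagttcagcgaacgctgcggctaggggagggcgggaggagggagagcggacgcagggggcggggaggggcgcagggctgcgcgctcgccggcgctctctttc
MIXL1 (chr1:226223414-226223663, plus strand): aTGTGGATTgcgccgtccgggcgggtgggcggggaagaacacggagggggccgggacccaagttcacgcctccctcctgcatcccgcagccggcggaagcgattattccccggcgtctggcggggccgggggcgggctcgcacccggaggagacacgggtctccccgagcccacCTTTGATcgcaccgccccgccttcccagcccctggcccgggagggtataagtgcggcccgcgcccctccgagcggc
HAND1 (chr5:154478228-154478477, minus strand): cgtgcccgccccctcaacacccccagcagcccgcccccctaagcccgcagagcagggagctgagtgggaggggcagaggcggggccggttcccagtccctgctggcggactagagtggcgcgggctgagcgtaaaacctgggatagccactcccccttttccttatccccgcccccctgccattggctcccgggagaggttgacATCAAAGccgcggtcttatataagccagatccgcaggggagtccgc
HAND2 (chr4:173530230-173530479, minus strand): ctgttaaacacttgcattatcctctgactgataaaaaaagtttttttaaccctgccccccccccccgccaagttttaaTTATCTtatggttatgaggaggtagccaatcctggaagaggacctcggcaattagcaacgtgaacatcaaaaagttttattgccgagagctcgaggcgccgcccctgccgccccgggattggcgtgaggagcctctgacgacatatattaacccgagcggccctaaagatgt
The match in GSC began 155 bases before its start, those in MIXL1 at 249 bases (FOXH1) and 76 bases (TCF/LEF), that in HAND1 at 46 bases (TCF/LEF) and that in HAND2 at 172 bases (GATA factor). Of 27305 promoters of this length, 11.1% held the core promoter box, 9.37% those of GATA factors, 0.681% those of FOXH1 and 2.28% those of TCF/LEF. The shares were 9.69%, 8.92%, 0.462% and 2% among 650 promoters of genes higher in crotonate-treated hEPS cells, and 10.4%, 7.71%, 0.723% and 1.205% among 415 of genes lower. The shares listed for all 10101 measured genes with a promoter entry were 5.41%, 4.62%, 0.337% and 1.28%. Whether these last shares count both strands, as the others do, was not checked. They are therefore no background for the called genes, and no enrichment is read from them. Genes and motifs were chosen after their values were seen, and a match is a description and not a site of binding.

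Fibroblast and matrix genes were also with the endodermal column. Of 23 mesenchyme genes, 11 were lower and 1 higher in crotonate-treated hEPS cells, with a median of -2.08 over 21 measured. The shares of all measured genes were 4.45% lower and 7.07% higher. COL3A1, a fibrillar collagen of soft tissue on chromosome 2 from 188974373 to 189012746, showed the greatest difference in this direction. It was at 2.92 in crotonate-treated hEPS cells, 5.16 in untreated hEPS cells, 2606 in endodermal cells, listed at 0 in untreated primed hESCs and at 3863 in crotonate-treated primed hESCs. LUM, a collagen-binding proteoglycan, was at 0.578 against 286, and TGFBI, a matrix protein induced by TGF-beta, was at 14.1 against 1561. The collagen list was less uniform. Of 43 chains, 32 were measured, 10 of them lower and 4 higher, against the same shares. COL1A1, the main bone and skin collagen, was at 512 against 2280.0 and at 66.1 in untreated hEPS cells. COL7A1, the anchoring fibril collagen of epithelia, was higher at 75.9 against 14.6. The hEPS cells had been grown on mouse fibroblast feeders, and 7 fibroblast markers summed to 687.6 in crotonate-treated hEPS cells, 130.7 in untreated hEPS cells and 7039 in endodermal cells, with 5, 4 and 6 of them at 1 FPKM or more. COL3A1, LUM and DCN, another small proteoglycan, were at or under 2.92 in crotonate-treated hEPS cells, and the part of feeder or stromal RNA in these values was not tested.

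Muscle, vessel and extraembryonic genes followed in part, where 4.45% of all measured genes were called lower and 7.07% higher. Of 18 cardiac and smooth muscle genes, 5 were lower and 2 higher. ACTC1, cardiac actin, was at 29.6 against 2629.8, and ACTA2, smooth muscle actin, was at 18.99 against 1071. NPPB, the natriuretic peptide, was higher at 364 against 59.3, after 28.6 in untreated hEPS cells. Of 17 endothelial and blood genes, 5 were lower and 1 higher, led by the VEGF receptor FLT1 at 15.4 against 547. Of 21 amnion and trophoblast genes, 9 were lower and 1 higher, with a median of -2.80 over 14 measured. TFAP2A, an AP-2 factor of amnion, surface ectoderm and neural crest, was at 0.715 against 109.7, and only 0.467 in crotonate-treated primed hESCs. TFAP2C, its paralog in naive cells and germ cell precursors, was the higher member at 46.8 against 8.55. GATA3 was not called, at 17.96 and 54.9.

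WNT, FGF and IGF genes were mixed. Over all measured genes, 7.07% were called higher and 4.45% lower. Of 29 WNT targets and antagonists, 26 were measured, 5 of them higher and 3 lower. SP5, a direct target of beta-catenin in the streak, was at 271 against 1.504 and already at 176 in untreated hEPS cells. DKK4, a secreted WNT antagonist, was at 69.2 against 0.0942. RSPO2, a secreted WNT amplifier, was lower at 1.19 against 129, and LEF1, a nuclear effector, was lower at 14.6 against 99.9. AXIN2, the general feedback target, was not called at 86.9 and 28.8. Of 30 FGF genes, 7 were higher and 0 lower, whereas the feedback targets SPRY2 and DUSP6 were not called at 128 and 218, and at 141 and 229.8. Of 14 IGF genes, 13 were measured, 1 of them higher and 3 lower. IGF2, the fetal growth factor, was lower at 61.1 against 871, and IGFBP7, a secreted binding protein, was lower at 13.2 against 1410.3. IGFBP6 was the higher member of this list at 164 against 9.41.

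Adhesion genes did not give a common direction. Of 24 epithelial genes, 2 were higher, 4 lower and 18 neither, against 7.07% of all measured genes higher and 4.45% lower. CDH1, E-cadherin, was at 17.5 in crotonate-treated hEPS cells and 92.4 in endodermal cells, and untreated levels were 5.68 in hEPS cells and 277 in primed hESCs. CDH2, N-cadherin, was not called at 684 and 266. SNAI2, a repressor of CDH1, was lower at 5.93 against 172, and TWIST1 was lower at 8.78 against 74.4. OCLN, a tight junction protein, was higher at 50.6 against 4.55. EPCAM, an epithelial and stem cell surface protein, was at 263 and 141.

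Metabolic genes are read against the 7.07% of all measured genes called higher and the 4.45% called lower. Of 22 glycolytic genes, 3 were higher, 0 lower and 19 neither, with a median of 0.19. PDK1, the kinase that shuts pyruvate dehydrogenase, was at 234 against 26.1, with 75.3 in untreated hEPS cells. ENO2 was at 307 against 50.2, and ENO3, called with rescaling but not with quantile normalization (1.95 log2 units), was at 109.7 against 24.3. GAPDH, which oxidises glyceraldehyde phosphate, was at 1916 in crotonate-treated hEPS cells, 2484 in untreated hEPS cells, 5159 in endodermal cells and 7019.6 in untreated primed hESCs, a difference of -1.43 in the compared pair that was under the threshold. LDHA, which makes lactate, was at 660.5 and 321. Of 24 genes of the TCA cycle and pyruvate dehydrogenase, IDH2, a mitochondrial isocitrate dehydrogenase, was lower at 71.3 against 370.1, a call lost with FPKM as deposited (-1.97), and 23 were not called. Of 15 enzymes that make or use crotonyl-CoA, 1 was called, CDYL2, a chromodomain relative of the crotonyl-CoA hydratase CDYL, at 21.95 against 1.54. ACSS2, which can form crotonyl-CoA from crotonate, was at 22.1 and 84.2. Of 20 writers, erasers and readers of crotonylation, only MLLT3, a reader, was called, lower at 8.81 against 44.1, and this call was lost with FPKM as deposited (-1.72). EP300, a writer, was at 38.4 and 39.05, and HDAC1, an eraser, was at 210.2 and 154.

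Of the cell cycle, stress and immune lists, 3 held 0 called genes and the others 1 or 2, where 7.07% of all measured genes were called higher and 4.45% lower. None of 22 proliferation genes, 10 cyclin and inhibitor genes and 12 MHC class I genes was called, with MKI67 at 83.4 and 70.5 and HLA-B at 463 and 194. Of 20 interferon-inducible genes, MX2 was lower, a call lost with quantile normalization and with FPKM as deposited, and 19 were not called. ISG15, a ubiquitin-like product, was at 3058 and 2804, against 763 in untreated hEPS cells and 315 in untreated primed hESCs. Of 17 ATF4 and serine synthesis genes, ATF3, a stress-induced factor, was higher at 762 against 78.4, and CHAC1, which degrades glutathione, was higher at 75.6 against 17.99, just past the threshold. Of 17 p53 targets, GDF15, a secreted stress cytokine, was higher at 324 against 52.6.

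**Figure D4:**
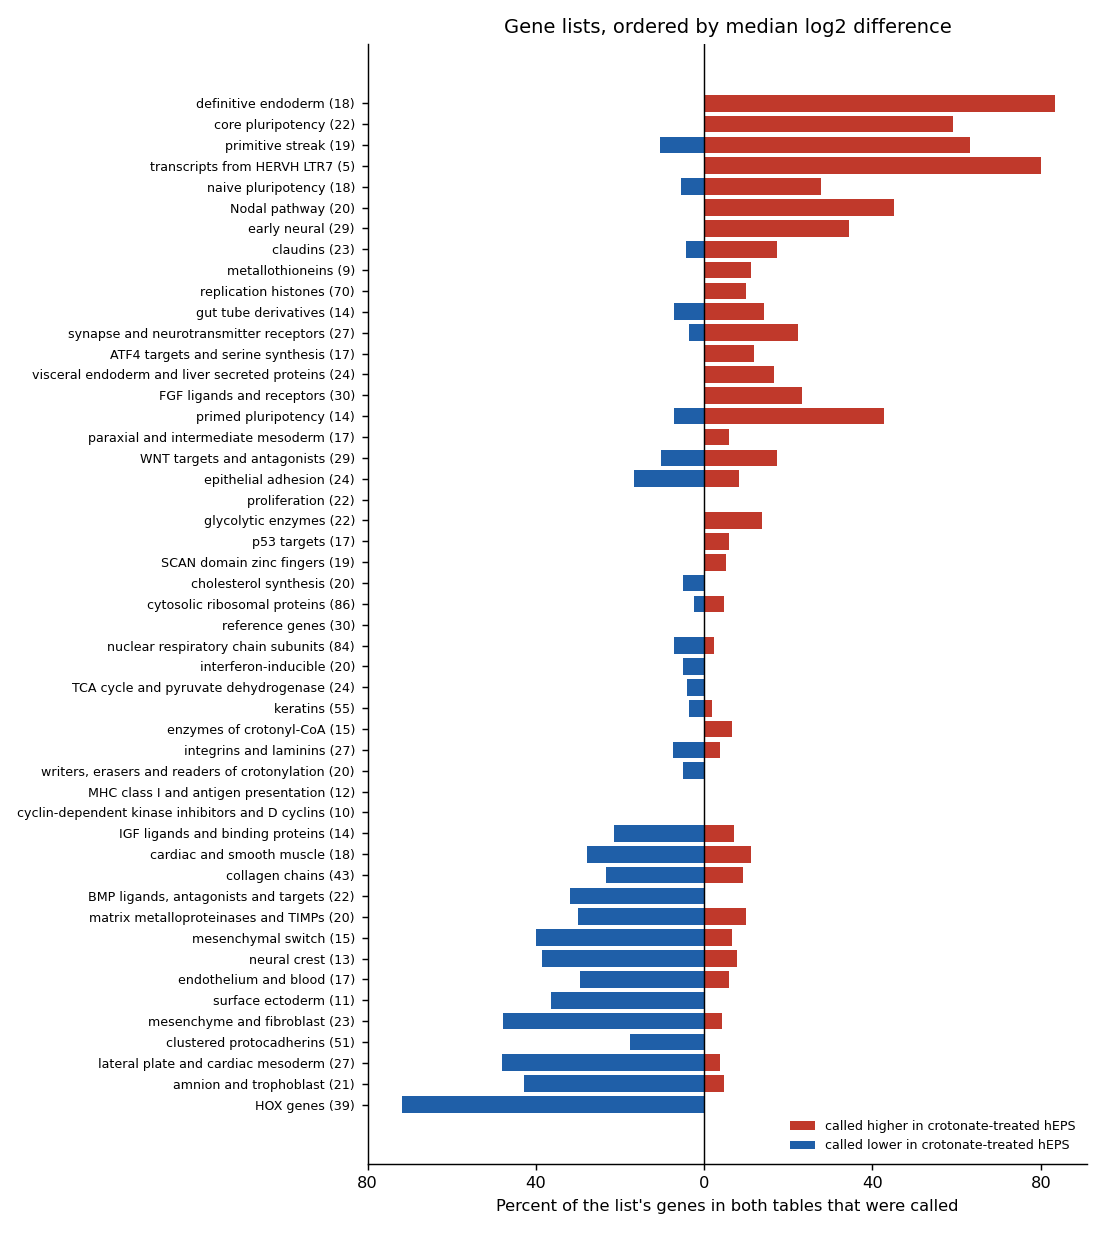
Percent of each gene list's members in both tables (number in brackets) that were called higher (right) or lower (left) in crotonate-treated hEPS cells, ordered by the list's median log2 difference. Members under 1 FPKM in both columns are in the total but could not be called. Definitive endoderm, core pluripotency and primitive streak lead one end and HOX, amnion and lateral mesoderm lists the other, and the proliferation, reference and MHC class I lists have no bar.

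Among the 10 called genes with the greatest difference in each direction, some were outside these lists. CRABP1, a retinoic acid-binding protein, was at 279.5 in crotonate-treated hEPS cells and 645 in untreated hEPS cells against 0.399 in endodermal cells. RAB17, a small GTPase of polarized epithelia, was at 202 against 0.5396, with 16.1 in untreated hEPS cells. CRHBP, which binds corticotropin-releasing hormone, was at 4.87 against 1518, with 3659 in crotonate-treated primed hESCs and 0.09101 in untreated primed hESCs. For the remaining 3 the hEPS table was low and the other tables high whatever the treatment, so table and cell state cannot be told apart. MIF, a cytokine, was at 1.85 against 955, but stood at 3.54 in untreated hEPS cells and 1696 in untreated primed hESCs. KRTCAP2, an oligosaccharyltransferase subunit, was listed at 0 in both hEPS columns and was at 210.0 and 132 in endodermal cells and untreated primed hESCs. ATP6V0C, a proton pump subunit, was at 2.98 and 2.56 in the hEPS columns against 536 and 377.

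The tables themselves were made on different gene scales. Of 860 genes below 0.2 FPKM in both endodermal cells and untreated primed hESCs, 81.4% had values in the proportion of small integers (at most 12) after division by 1 shared factor, within 0.05%, as counts of single reads over the same gene length give. The share was 88.0% of 1031 genes for the 2 hEPS columns, but 12.5% of 818 genes for crotonate-treated hEPS against endodermal cells. Between untreated hEPS cells and untreated primed hESCs, which share no column with the main comparison, 407 genes (3.2% of 12714) were called higher and 400 (3.15%) lower. Of the 915 genes higher in crotonate-treated hEPS cells, 162 were called the same way between the untreated columns, which is 17.7% of the former and 39.8% of the latter. Of the 576 lower genes, 110 were, which is 19.1% and 27.5%. Exons shared with another gene on the same strand over at least 100 bases were found for 48.1% of those 110 genes and 14.6% of the other lower genes with a match in GENCODE 44. For the higher genes these shares were 24.7% and 10.8%, against 14.1% of all measured genes, and the part of table and gene model in these calls was not tested further.

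**Figure D5:**
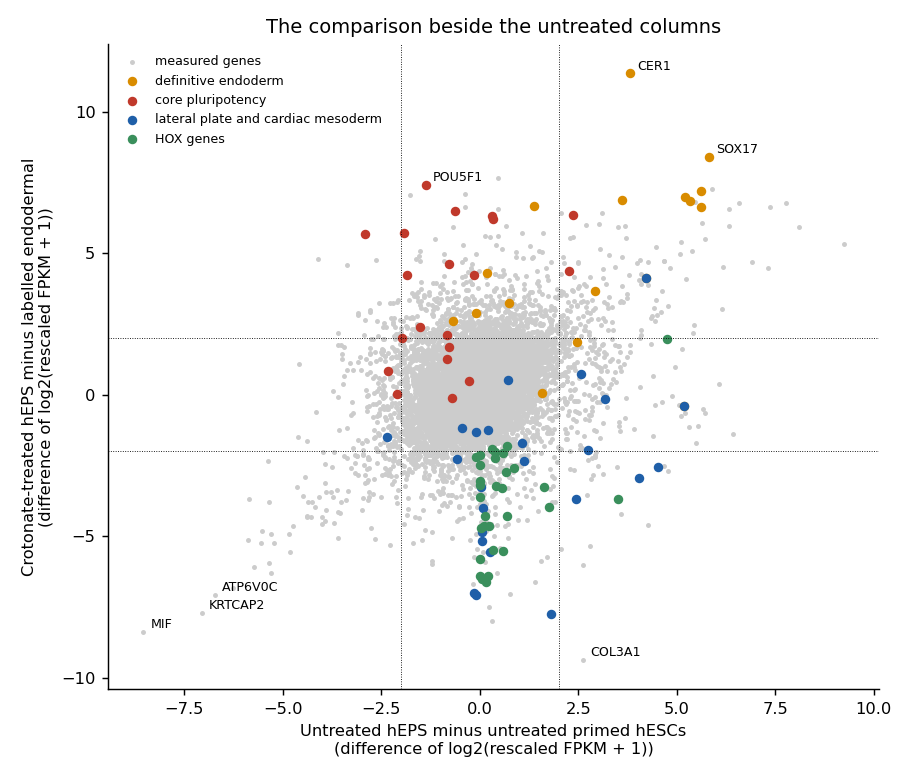
Difference of log2(rescaled FPKM + 1) of crotonate-treated hEPS minus endodermal cells (vertical) against untreated hEPS minus untreated primed hESCs (horizontal) for the 12943 measured genes, with 4 lists coloured and dotted lines at 4-fold. HOX genes sit low near the middle, definitive endoderm genes high and mostly to the right, and MIF, KRTCAP2 and ATP6V0C low at the far left.

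Levels before treatment set several of these differences apart. Relative to each column's own untreated cells, the median difference was 2.002 for definitive endoderm, 3.96 for core pluripotency, -4.07 for lateral plate and cardiac mesoderm, -3.76 for HOX genes and -3.30 for BMP genes, a scale chosen after the data were seen. GATA4, not called between the compared columns, had a relative difference of -5.58, since its untreated level was 39.8 in hEPS cells and 0.133 in primed hESCs. CDH1 was called lower in the plain comparison and had a relative difference of 3.05, and APOA1 was called higher and had one of -2.24. SP5 had a relative difference of 0.19. Across the 18437 shared genes, Pearson's r of log2(rescaled FPKM + 1) was 0.903 between crotonate-treated hEPS cells and endodermal cells. It was 0.969 between crotonate-treated and untreated hEPS cells, and 0.918 between crotonate-treated hEPS cells and untreated primed hESCs. Endodermal cells and crotonate-treated primed hESCs gave 0.960. Untreated hEPS cells and endodermal cells gave 0.897. Over genes of at least 1 FPKM in either compared column, r with endodermal cells was 0.773 for untreated and 0.769 for crotonate-treated hEPS cells. These correlations are across genes, which are not replicates, and pairs from 1 table share its gene lengths. The endodermal and primed columns also shared a gene scale by the integer steps above (81.4% of low genes). The pair at 0.903 did not (12.5%), so 0.960 and 0.903 are not on like terms.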

How the data were processed

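RNA-seq values of 5 groups were read from 3 tables deposited by the authors, which hold FPKM in 1 column per group. Processing notes from the submitters and the methods state that the authors mapped reads to hg38 and used TopHat 1.3.2, Cufflinks 1.1.0, HTSeq 0.6.0, StringTie 1.3.0 and edgeR (TMM) before conversion to FPKM. Further columns with values of a sample numbered 0. Date-like symbols were dropped, 28 from the hEPS table and 27 from the others. Each column was rescaled to a sum of 1000000 over the shared genes and compared as log2(value + 1), with a call at 4-fold and at least 1 FPKM in either column. The calling rule was tested on simulated data. The columns come from separately made tables, so only large differences are described. No count test could be run, and depth and replicate spread are unknown.

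The comparison, the 50 gene lists and the rule for named genes were chosen with earlier results of these data known. The rule takes the 10 genes with the greatest difference in each direction called under rescaling and quantile normalization, up to 4 called members per list and direction, and 16 markers (GATA4, GATA6, SOX17, FOXA2, LHX1, HHEX, MIXL1, TBXT, CER1, CXCR4, POU5F1, NANOG, SOX2, SOX1, PAX6, NES). Other list members named without a call, and genes named for their untreated levels, were chosen after their values were seen. TBXT is listed as T. A few list members are left out of the text and the plots of levels. Exon overlap and coordinates came from GENCODE 44, promoters from RefSeq. Alternatives were other scalings, pseudocounts, filters and thresholds. Figures were drawn with matplotlib 3.10.9, and values computed with pandas 2.3.3, scipy 1.17.1 and numpy 2.4.6 under Python 3.11.15.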

Additional observations from a re-analysis of the deposited data

Results flagged for a closer look

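Genes listed in the hEPS table alone were outside the comparison, since endodermal cells had no entry for them. There were 8294 such genes, 1398 with at least 1 FPKM in either hEPS column, and at 4-fold 15 were higher and 2 lower in crotonate-treated than in untreated hEPS cells. The 3 with the greatest difference stood above their untreated control. RP4-559A3.6 was at 18.9 FPKM against 0.167 FPKM in untreated hEPS cells. AL031663.1 was at 16.9 FPKM against 0.952 FPKM. AL606500.1 was at 8.97 FPKM and listed at 0 in untreated hEPS cells. These are values as deposited, from 1 column per group.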

How the results depend on the processing

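The counts of 915 higher and 576 lower genes depended on scaling and threshold. Quantile normalization gave 516 higher genes, and FPKM as deposited gave 323 lower genes. A 2-fold threshold gave 2778 higher and 1711 lower genes, and an 8-fold threshold gave 339 and 237. No filter and a filter on rescaled values could not change the 915 and 576. A 4-fold call with a pseudocount of 1 already needs over 1 FPKM. Leaving out repeated symbols could not either, since 0 were repeated. Median-of-ratios scaling, a pseudocount of 0.1 and rescaling without ribosomal and the 10 most abundant genes kept both counts within 1.5 times. Chosen after seeing the data, leaving out genes with shared exons (765 and 441) and setting each column against its own untreated cells (1017 and 598) did so too. Only 526 of the 915 higher and 327 of the 576 lower genes were called in that last setting, and 55 named calls fell under the threshold in it. Of the named calls 11 changed sign there, 3 of them past 4-fold the other way, APOA1 (-2.24), CDH1 (3.05) and HIST1H4C (-2.20), and 8 under it, among them NPPB (-1.85), ATF3 (-0.36) and GATA6 (-0.10). Of 161 named genes with a call, 129 kept it under every alternative other than the 8-fold threshold and the own untreated cells. The filter settings, the repeated symbols and the 2-fold threshold could not take a call away, so they add nothing to this count. Leaving out genes with shared exons could not either, since it changes no value. It scored 131 named genes, and the calls of named genes it left out still count as kept. Quantile normalization took 24 named calls under the threshold, among them CHAC1, DNMT3L, ENO3, GRHL2, KRT7, KRT18, KRT222 and MX2. FPKM as deposited did so for 17, among them CDH1, IDH2, MLLT3 and MX2. Of 49 list medians, 13 moved by over 1.5-fold with no filter, 9 as deposited, 7 with quantile normalization, 7 with a pseudocount of 0.1, 2 with the filter on rescaled values and 0 with median of ratios. The correlation of 0.903 became 0.901 as Spearman's rho, 0.815 on linear FPKM and 0.769 over genes of at least 1 FPKM. Between the untreated columns, quantile normalization gave 217 lower genes in place of 400. The cause of these shifts was not tested. No paired analysis was possible because each group has 1 column, and for the same reason no replicate could be left out. Read totals are not given, so depth and counting error are unknown.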

Other observations

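Further gene groups are given beside all measured genes. Of those, 7.07% were called higher and 4.45% lower in crotonate-treated hEPS cells than in the cells labelled endodermal. The counts rest on few members, and lists with 1 call are not read as different from these shares. Of 13 neural crest genes, 5 were lower and 1 higher, the latter SOX10, a factor of crest and glia, at 14.3 against 0.485. TFAP2A, SNAI2, MSX1 and MSX2 among the lower ones are also members of lists above. Of 11 surface ectoderm genes, 4 were lower and 0 higher, among them GRHL2, an epithelial factor, at 0.872 against 6.63. DLX5, TFAP2A and GRHL2 of this list also belong to lists above, so these counts are not separate. Of 51 clustered protocadherins, which give neurons their surface identity, 18 were measured, 9 of them lower and 0 higher. PCDHGC3 was at 18.2 against 123, and these genes share exons within a cluster. Of 20 matrix metalloproteinase and TIMP genes, 6 were lower and 2 higher, with TIMP3 at 22.3 against 323 and MMP17 at 68.6 against 1.31. The mesenchymal switch list gave 6 lower and 1 higher of 15. It shares members with the mesenchyme list, among them SNAI2, TWIST1, FN1, MMP2 and TWIST2, which is the higher member of both lists.

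Of 23 claudins, 4 were higher and 1 lower, with CLDN11, a claudin of myelin and testis, at 72.3 against 1.37 and CLDN4 at 14.3 against 89.3. Of 27 integrins and laminins, 24 measured, LAMC3 was higher and ITGA1 and ITGA4 were lower. Of 55 keratins, 7 measured, KRT222 was higher and KRT7 and KRT18 were lower. Of 17 paraxial and intermediate mesoderm genes, 8 measured, only LHX1 was called. Of 19 SCAN domain zinc fingers, 17 measured, it was only ZSCAN10, and of 9 metallothioneins, 4 measured, only MT1F. All were higher. Of 20 cholesterol synthesis genes, FDPS was lower at 74.1 against 498, and stood at 118 in untreated hEPS cells and 389 in untreated primed hESCs.

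Of 70 replication histone genes, 34 were measured, 7 of them higher and 0 lower. The authors enriched mRNA with oligo(dT), and the part of this step in the histone values was not tested. HIST1H4C was at 82.7 in crotonate-treated hEPS cells, 274 in untreated hEPS cells, 0.395 in endodermal cells and listed at 0 in both primed columns. Over all measured genes, 7.07% were called higher and 4.45% lower. Of 86 cytosolic ribosomal protein genes, 82 were measured, 4 of them higher and 2 lower. Of 84 nuclear respiratory chain genes, 77 were measured, 2 of them higher and 6 lower. NDUFA11, the respiratory chain gene with the lowest difference, was at 9.86 against 135, with 12.04 in untreated hEPS cells and 100.3 in untreated primed hESCs. Mitochondrially encoded genes are listed in the hEPS table alone, where they took 12.0% of untreated and 18.1% of crotonate-treated FPKM.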
